A study of Mus musculus with 11 samples.

Results

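The genes described here are 35 genes of the lysosome, measured in mouse microglia, which are the brain's own macrophages: 5 membrane proteins, 19 hydrolases, 3 soluble cofactors and carriers, 2 transcription factors of lysosomal genes and 6 parts of the proton pump. They were chosen by name, with cathepsins left out, and were found in the deposited table by matching Entrez gene identifiers to mouse symbols. All 35 were present among the 16894 genes of the table. RNA was sequenced from 11 libraries in 3 groups: 4 of transplanted microglia, 3 of cultured primary microglia and 4 of resident microglia. The study set the transplanted cells against the other groups to ask how far they take on the programme of naive microglia.

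Transplanted microglia were sorted by fluorescence-activated cell sorting 3 months after transplantation. Primary microglia were taken from culture, and resident microglia were sorted like the transplanted cells. All 11 libraries carry the genotype Cx3cr1-GFP, a reporter in the fractalkine receptor gene that microglia express. The labels attach to every library a depletion protocol, in which PLX3397 was fed at 600 mg/kg of chow over 3 cycles; this compound blocks Csf1r, whose signal keeps microglia alive. Whether donors of resident cells ate this chow is not stated, nor which cells were transplanted. The labels also leave unsaid whether the libraries of a group came from separate animals or cultures, so every p-value below measures only the spread between these libraries, which may be technical.

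Lysosomes digest material taken up by a cell, and microglia use them to break down myelin, dead cells and protein aggregates. Their hydrolases work at an acid pH, which the vacuolar proton pump keeps up by moving protons across the membrane with energy from ATP. The transcription factors Tfeb and Mitf bind an E-box, with the core CACGTG, near the start of many lysosomal genes. Loss of single hydrolases or carriers causes lysosomal storage diseases, many of which affect the brain.

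The E-box core was looked for on both strands in RefSeq promoters of build GRCm38.p6. Each reached from 250 bases before to 50 bases after a listed start of its gene. Where a gene had more than 1 promoter, as 4 members did, a match in any of them counted. Of the members, 31 had such a promoter; Atp6v0d2, Npc1, Asah1 and Atp6v1b2 had none in the table. CACGTG stood in a promoter of 11 of these 31 genes (35.5%), against 8.09% of the 27025 genes with a promoter and 11.59% of the 10000 such genes that passed the expression filter in the comparison of cultured with resident cells. The longer form TCACGTGA, which contains the core and was counted within it, stood in 4 of 31 (12.9%), against 1.12% of all genes and 2.16% of those that passed the filter. The first base of all 16 core sites lay before the start of its promoter, and that of 12 within 75 bases of it. The site of Atp6v0d1 reaches across the start. That of Lgmn lay in a promoter inside the gene, chr12:102439043-102439342, minus strand, and its other promoter held none. A match is a run of letters and not a measured binding site.

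The promoters printed here are the 4 with the longer form and that of Lamp1, which had the most core sites of the 31 genes, 4 of them. Each runs 5′ to 3′ on the strand of its gene, with the matched letters in capitals. Positions are those of build GRCm38.p6: chrX:134600956-134601255, minus strand, for Gla; chr16:44139210-44139509, minus strand, for Atp6v1a; chr8:105566015-105566314, minus strand, for Atp6v0d1; chr8:3500269-3500568, plus strand, for Mcoln1; and chr8:13158911-13159210, plus strand, for Lamp1.
Gla: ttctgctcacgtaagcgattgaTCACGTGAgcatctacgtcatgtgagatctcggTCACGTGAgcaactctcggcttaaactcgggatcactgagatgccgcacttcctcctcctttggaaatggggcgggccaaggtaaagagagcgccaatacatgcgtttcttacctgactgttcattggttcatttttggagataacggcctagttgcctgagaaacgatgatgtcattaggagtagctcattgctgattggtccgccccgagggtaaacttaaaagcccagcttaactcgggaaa
Atp6v1a: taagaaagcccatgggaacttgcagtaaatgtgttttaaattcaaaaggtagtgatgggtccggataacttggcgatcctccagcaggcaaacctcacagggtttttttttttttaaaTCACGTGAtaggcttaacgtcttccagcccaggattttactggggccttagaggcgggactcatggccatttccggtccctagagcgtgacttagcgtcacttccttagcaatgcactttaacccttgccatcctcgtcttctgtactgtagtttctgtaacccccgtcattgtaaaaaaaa
Atp6v0d1: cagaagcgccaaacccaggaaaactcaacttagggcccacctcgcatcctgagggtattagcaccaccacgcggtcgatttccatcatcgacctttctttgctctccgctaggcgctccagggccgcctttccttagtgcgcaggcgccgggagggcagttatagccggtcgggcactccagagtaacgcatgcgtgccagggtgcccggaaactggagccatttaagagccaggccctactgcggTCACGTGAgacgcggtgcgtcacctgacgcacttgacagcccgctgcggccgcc
Mcoln1: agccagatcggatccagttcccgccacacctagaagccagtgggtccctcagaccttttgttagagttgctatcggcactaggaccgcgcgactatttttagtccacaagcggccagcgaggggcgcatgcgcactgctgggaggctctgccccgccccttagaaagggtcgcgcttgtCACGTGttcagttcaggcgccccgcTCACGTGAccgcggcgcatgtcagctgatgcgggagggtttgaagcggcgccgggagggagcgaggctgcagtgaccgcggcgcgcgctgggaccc
Lamp1: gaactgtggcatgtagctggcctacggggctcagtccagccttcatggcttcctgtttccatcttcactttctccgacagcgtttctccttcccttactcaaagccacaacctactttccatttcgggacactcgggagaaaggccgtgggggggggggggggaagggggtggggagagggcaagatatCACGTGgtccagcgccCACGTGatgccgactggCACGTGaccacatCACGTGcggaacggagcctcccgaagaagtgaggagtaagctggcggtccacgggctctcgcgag

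Of these genes, Gla, Atp6v1a, Atp6v0d1 and Lamp1 were among those higher in cultured than in resident cells, as described below, and Mcoln1 was not called. Over the members searched, the core stood in 5 of 16 genes called higher in cultured cells, 2 of 7 called lower and 4 of 8 not called. The longer form stood in 3 of 16, 0 of 7 and 1 of 8 of these genes. In the plot of site positions most sites sit just before the start, and those of Gla, Atp6v1a and Gaa lie further upstream.

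**Figure D1:**
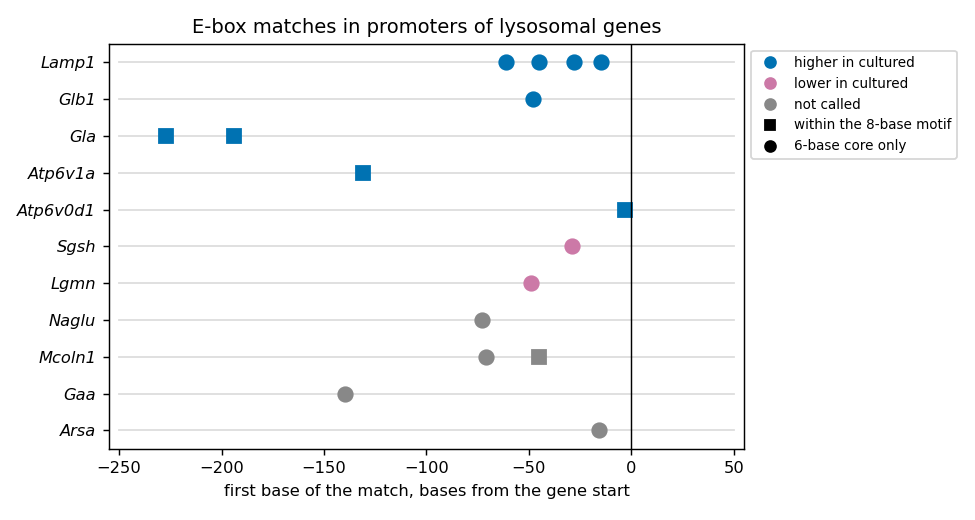
First base of each CACGTG match in members' promoters, as its distance in bases from the listed start of that promoter. Squares lie inside the longer form TCACGTGA, and colours give the call in cultured against resident cells. The start used for Lgmn lies inside the gene. All 16 begin before the start and 12 begin within 75 bases of it; the 2 matches of Gla, at -227 and -194, lie furthest upstream.

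Total expected counts were 18692721 to 19761208 per transplanted library, 26705034 to 28219696 per cultured library and 19055655 to 19965631 per resident library. Levels are given as CPM, read counts scaled to a common total with TMM factors over all 11 libraries, and levels between genes as the authors' TPM, which divides by gene length. The 10 most abundant genes took 11.9% to 13.2% of the counts in transplanted libraries, 25.1% to 26.5% in cultured libraries and 12.1% to 13.2% in resident libraries. The 10 markers that define parenchymal microglia summed to 47646 to 58244 CPM in transplanted libraries, 3504 to 6047 CPM in cultured libraries and 54773 to 61569 CPM in resident libraries. None of the 10 was at 0 throughout any group. The 8 monocyte markers summed to 549 to 798 CPM in transplanted libraries, 77456 to 87081 CPM in cultured libraries and 242 to 388 CPM in resident libraries, and the 8 markers of border macrophages to 372 to 617 CPM in transplanted, 3506 to 3793 CPM in cultured and 573 to 666 CPM in resident libraries. Of the border macrophage markers, Cd209f was at 0 in all transplanted and all cultured libraries. Of these 8 markers, 7 were called lower in transplanted than in resident cells (edgeR), and the sum was carried by Stab1, which was not called, at 466 CPM in transplanted cells and 550.2 CPM in resident cells on average. In cultured against resident cells, 3 of these 8 were called higher, 3 lower and 2 not called, so the higher cultured sum was not shared by the markers. Of 7 monocyte markers tested there, 6 were called higher and 1 lower, against 37.9% and 37.2% of all genes. Of 5 tested between transplanted and resident cells, 3 were called higher and 1 lower in transplanted cells, against 7.17% and 5.86% of all genes. Their log2 fold changes ran from -2.23 to 1.82. The 15 immediate early genes summed to 1053 to 1390 CPM in transplanted libraries, 6123 to 6746 CPM in cultured libraries and 874.5 to 15333 CPM in resident libraries, of which replicate 1 stood apart as the highest. In transplanted against cultured cells 13 of the 15 were called lower and 2 higher (edgeR), against 35.5% and 36.9% of all genes. The part of these differences in the results below was not tested, and in bulk RNA fewer cells of a type cannot be told apart from less RNA per cell.

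Per length, a few lysosomal genes ranked among the most abundant transcripts of sorted microglia. Lgmn, which encodes the cysteine protease legumain, led the members at 9552 ± 361 TPM in transplanted cells (SD, n = 4) and 9049 ± 615 TPM in resident cells (SD, n = 4), rank 9 and rank 11 among all genes. In cultured cells it stood at 1547 ± 323 TPM (SD, n = 3), rank 68. The members after it in both sorted groups were Laptm5, Grn, Hexa and Psap, in that order. In cultured cells Grn led at 2613 ± 222 TPM (SD, n = 3), apart from the next, Psap; the library ranges of Psap, Laptm5 and Lgmn, in that order, overlapped from each to the next. At the low end stood Ids, Gla and Atp6v0d2 in both sorted groups, and Mitf, Sgsh and Ids in cultured cells. Of the 34 pairs of neighbours in this order, library ranges overlapped in 20 in transplanted cells, 31 in cultured cells and 13 in resident cells. Most cultured neighbours were thus not separated by their ranges. The genes share libraries, so overlapping ranges do not show whether an order held within each library. The members together summed to 28295 to 30353 TPM in transplanted libraries, 12162 to 15804 TPM in cultured libraries and 26498 to 28764 TPM in resident libraries.

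**Figure D2:**
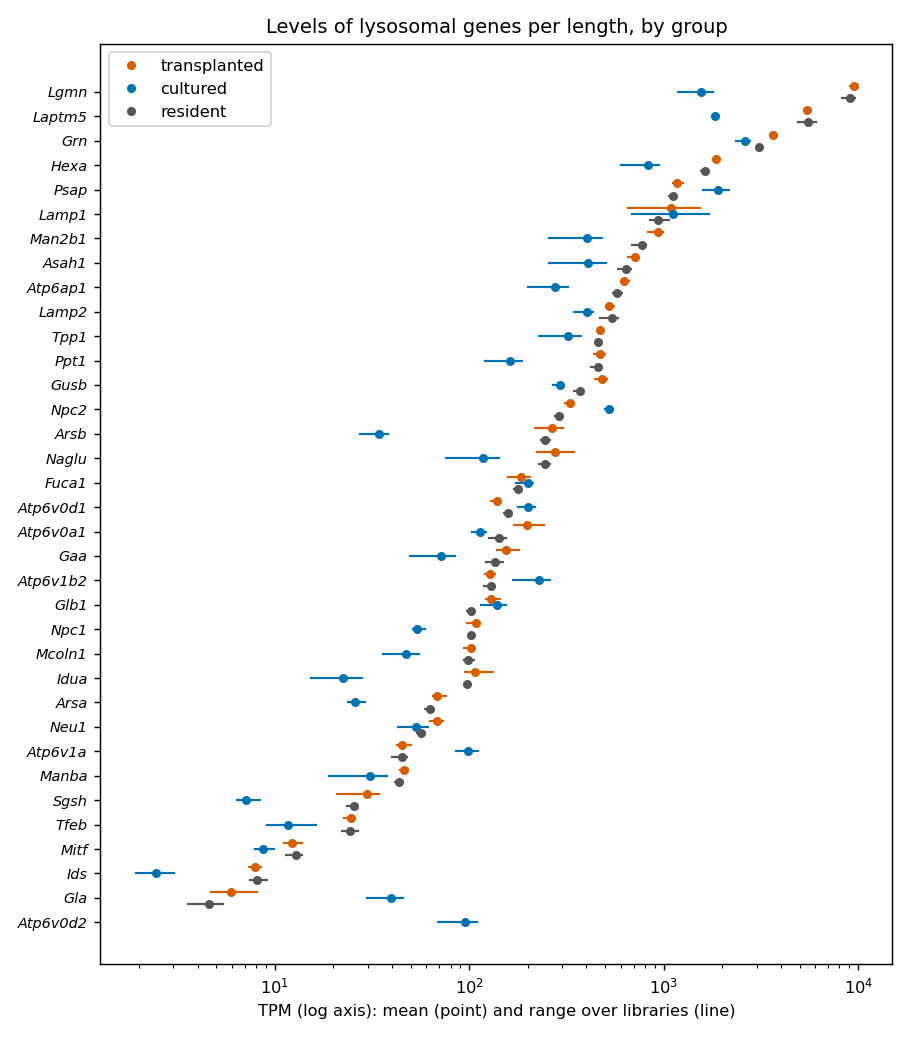
Mean deposited TPM of each member in transplanted, cultured and resident microglia, on a log axis, with lines for the range over 4, 3 and 4 libraries. Means under 0.5 TPM are not drawn, which leaves out Atp6v0d2 in transplanted and resident cells; Lgmn leads both sorted groups and Grn leads the cultured cells.

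Few of these genes were called between transplanted and resident microglia. Of 34 members tested, 4 rose in transplanted cells and 0 fell, which is 11.8% called; over all 11929 genes tested 13% were called, 7.17% higher and 5.86% lower. The members had a median log2 fold change of 0.09, against 0.02 for all genes, and ran from -0.20 to 0.47. Expression was tested with edgeR's quasi-likelihood test on the expected counts, with Benjamini-Hochberg adjustment over all genes and a call at an adjusted p under 0.05. For 7 of the 34 the libraries of the groups did not overlap, against 19.7% of all genes tested.

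Atp6v0a1, which encodes the a subunit of the pump's membrane sector, had 285, 297, 399 and 354 CPM in transplanted libraries and 238, 247, 262 and 221 CPM in resident libraries. Every transplanted library was above every resident library, with replicates 3 and 4 the highest. Its log2 fold change was 0.47 ± 0.11 (SE; adjusted p = 0.0183, edgeR), and the call was lost without resident replicate 2 or 4, where the adjusted p reached 0.0663. Gusb, which encodes beta-glucuronidase, an enzyme that trims glycosaminoglycans, had 476, 458, 492 and 476 CPM in transplanted libraries and 352, 339, 376 and 378 CPM in resident libraries. The groups did not overlap, and the change of 0.40 ± 0.06 (adjusted p = 0.00243, edgeR) was called in all 8 fits that left out a library, with adjusted p up to 0.0139.

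Glb1, the beta-galactosidase that acts on ganglioside GM1, had 124, 133, 119.8 and 144 CPM in transplanted libraries and 98.4, 106, 104 and 112 CPM in resident libraries. Neu1, a sialidase, had 115, 115, 104 and 123 CPM in transplanted libraries and 99.7, 94.6, 91.7 and 103 CPM in resident libraries. Neither gene's groups overlapped, but the gap for Neu1 was narrow, between transplanted replicate 3 and resident replicate 4. The log2 fold changes were 0.31 ± 0.07 for Glb1 (adjusted p = 0.0196, edgeR) and 0.24 ± 0.07 for Neu1 (adjusted p = 0.0489, edgeR). Glb1 was not called without resident replicate 1, 2 or 3, with adjusted p up to 0.0745. Neu1 was called in 1 of 8 fits that left out a library, that without transplanted replicate 3, and its adjusted p otherwise reached 0.171; it was not called with TMM-scaled TPM or with the length trend removed either.

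The members next in line did not pass. Grn, the precursor of granulins, had 3197, 3401, 3066 and 3416 CPM in transplanted libraries and 2752, 2741, 2879.6 and 2937 CPM in resident libraries, a log2 fold change of 0.22 ± 0.06 with adjusted p = 0.0502 (edgeR). Hexa, the alpha subunit of beta-hexosaminidase, was at 0.18 ± 0.06 with adjusted p = 0.101 (edgeR), and Man2b1, an alpha-mannosidase, at 0.27 ± 0.09 with adjusted p = 0.0878 (edgeR). Libraries of Grn and Hexa did not overlap between the groups. Atp6v0d1, the d subunit of the pump, was the only member whose transplanted libraries all lay below the resident ones, at -0.20 ± 0.07 with adjusted p = 0.0711 (edgeR). Counts of called members ran from 1, without resident replicate 2, to 7, without transplanted replicate 3, which was the lowest of its group in 25 of the 35 members. Without resident replicate 1, the library high in immediate early genes, 2 members were called. Shares of all genes in these fits are not given here.

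Cultured microglia differed from resident microglia in most members. Of 35 tested, 18 rose and 7 fell in cultured cells, 71.4% in all, against 75.1% of the 12406 genes tested, 37.9% higher and 37.2% lower. Libraries did not overlap for 26 members, against 75.7% of all genes. The members' median was 0.44 on the log2 scale, against -0.02 for all genes. Proton pump subunits, saposins' precursor Psap and the cholesterol carrier Npc2 rose, while Lgmn, Ppt1, Laptm5, Arsb, Idua, Sgsh and Ids fell. These counts depend on the scale: on the deposited TPM, tested with limma on log2(TPM + 0.5), 8 members were higher and 24 lower.

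The scale moved the median of all genes. Between cultured and resident cells the median log2 fold change over all genes was -0.02 on TMM-scaled counts, -0.60 on counts scaled to library totals and -1.02 on the deposited TPM. Relative to that median, the members' median lay 0.46 higher on TMM-scaled counts, 0.45 higher on library totals and 0.47 higher on TPM. With library totals 13 members were higher and 16 lower, against 24.6% and 53.8% of all genes. On TPM the shares of all genes were 17.4% higher and 68.4% lower. With TMM scaling applied to the TPM values 17 members were higher and 8 lower, against 35.9% and 41.4% of all genes, and with the trend of fold change on gene length removed 22 were higher and 5 lower, against 38.4% and 35.6%. The cause of the shift was not tested. The calls that stood on all 5 scales were 8 higher, namely Gla, Glb1, Psap, Npc2, Atp6v0d1, Atp6v0d2, Atp6v1a and Atp6v1b2, and 5 lower, namely Laptm5, Arsb, Idua, Lgmn and Ppt1. By contrast, 7 members called higher on counts were called lower on TPM: Lamp2, Gusb, Manba, Tpp1, Grn, Mitf and Atp6v0a1.

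**Figure D3:**
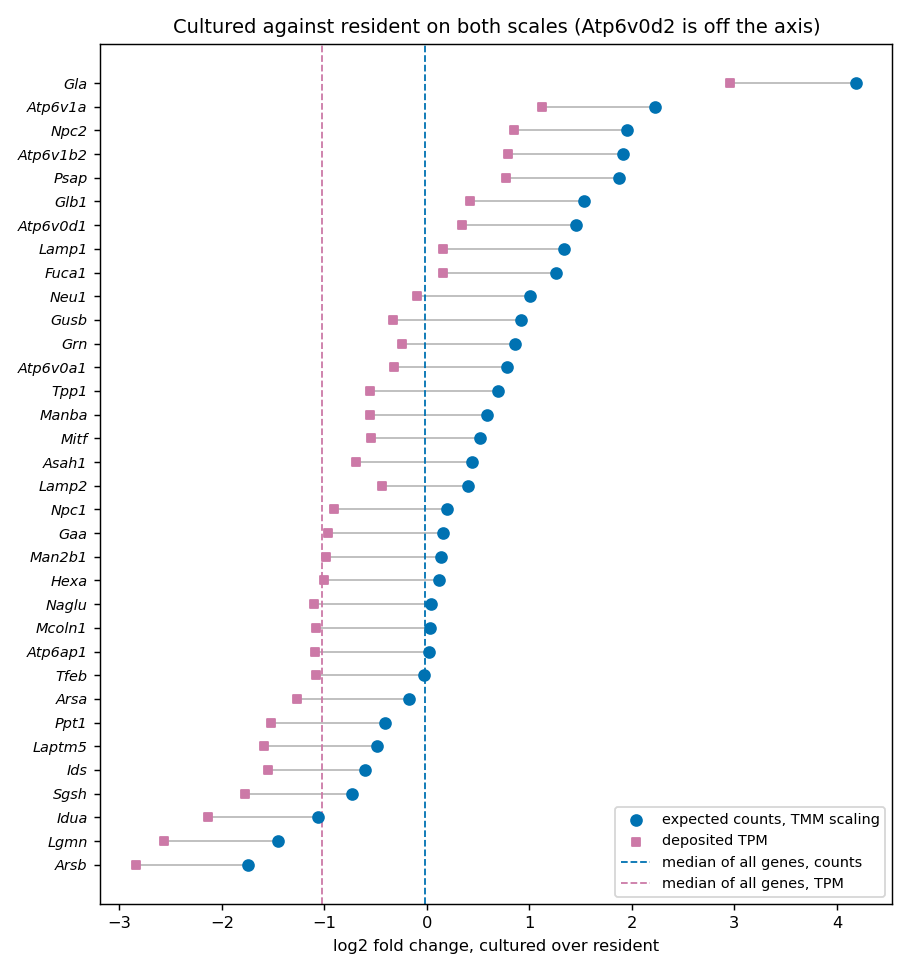
Log2 fold change of each member in cultured over resident cells, on TMM-scaled counts (circles) and on the deposited TPM (squares), with dashed lines at the median of all genes; Atp6v0d2 is off the axis. On TPM the values sit lower by about as much as the median of all genes, which is -1.02 there and -0.02 on TMM-scaled counts.

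Of the membrane proteins, Lamp1 and Lamp2, the glycoproteins that line the lysosome, and Laptm5, a further lysosomal membrane protein, were called. Lamp1 had 1364, 1962 and 3219 CPM in cultured libraries and 794, 810.5, 995 and 938 CPM in resident libraries. The groups did not overlap, but cultured replicate 3 was far above the others, and Lamp1 was the most variable member in both cultured and transplanted cells, with coefficients of variation of 43.4% and 36.2%. Its log2 fold change was 1.34 ± 0.25 (adjusted p = 9.73e-04, edgeR), and on TPM it was 0.15 and not called.

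Lamp2 had 940.0, 789.6 and 916 CPM in cultured libraries and 589, 732, 671 and 747 CPM in resident libraries. It rose by 0.40 ± 0.12 on the log2 scale of counts (adjusted p = 0.0134, edgeR) but was called lower on TPM, at -0.43, and on counts it lost its call in 3 of the 7 fits that left out a library (without cultured replicate 1 or 3 or resident replicate 3), with adjusted p up to 0.0644. Laptm5 fell by 0.49 on the log2 scale (SE 0.12; adjusted p = 0.00387, edgeR) and fell on every scale. Npc1, the membrane exporter of cholesterol, and Mcoln1, a calcium channel, were not called, at 0.20 ± 0.11 and 0.03 ± 0.13.

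**Figure D4:**
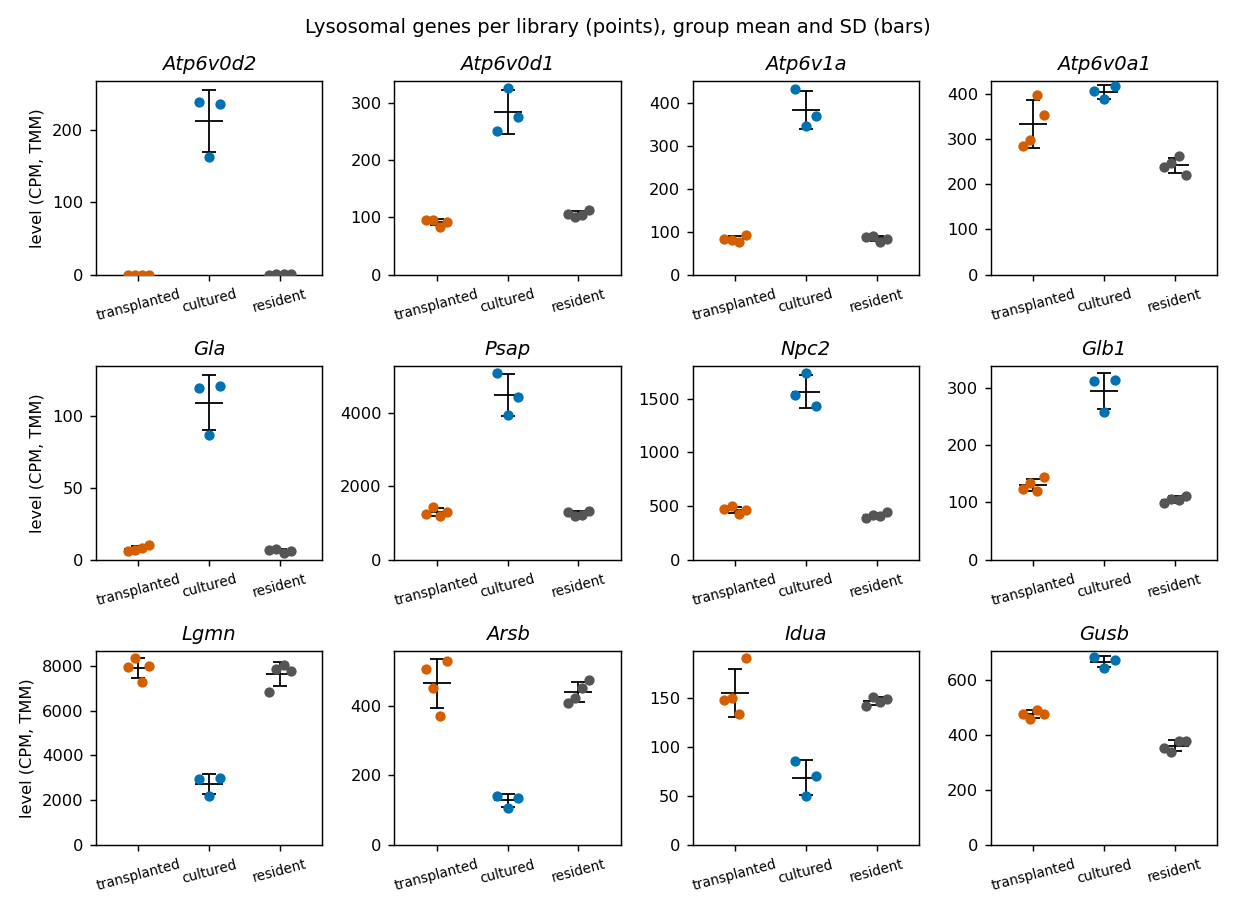
Level of chosen members in each library, in CPM with TMM scaling, for transplanted, cultured and resident microglia, with the mean and SD of each group. Cultured libraries lie above both sorted groups for Gla, Psap, Npc2, Glb1, Gusb, Atp6v0d1, Atp6v0d2 and Atp6v1a and below them for Arsb, Lgmn and Idua; for Atp6v0a1 they overlap the transplanted libraries.

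Among the hydrolases, 7 rose and 6 fell. Gla, the alpha-galactosidase A that removes galactose from globotriaosylceramide, had 119, 86.9 and 121 CPM in cultured libraries and 6.57, 7.15, 4.7 and 6.08 CPM in resident libraries. The lowest cultured library was far above the highest resident library, and the change was 4.19 ± 0.18 (adjusted p = 8.43e-08, edgeR), 18.2-fold. The other hydrolases called higher were Glb1 at 1.53 ± 0.11, Fuca1, an alpha-fucosidase, at 1.26 ± 0.10, Neu1 at 1.00 ± 0.11, Gusb at 0.92 ± 0.10, Tpp1, a tripeptidyl peptidase, at 0.70 ± 0.11 and Manba, a beta-mannosidase, at 0.59 ± 0.19. Of these, Gusb, Tpp1 and Manba were called lower on TPM, Fuca1 and Neu1 were not called there, and Manba lost its call in 4 of the 7 fits that left out a library.

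Arsb, the arylsulfatase that desulfates dermatan and chondroitin sulfate, had 141, 107 and 134 CPM in cultured libraries and 409, 421, 451 and 475 CPM in resident libraries. The groups were wide apart, with a log2 fold change of -1.75 ± 0.13 (adjusted p = 2.51e-06, edgeR). In the GENCODE annotation 32.3% of the exon bases of Arsb also lie in Gm26527 on the opposite strand, and the sources used here do not say whether counting used strand, so reads of the pair cannot be told apart. Lgmn had 2937, 2195 and 2999.9 CPM in cultured libraries and 6831, 7866, 8027 and 7759 CPM in resident libraries. Its groups were likewise apart, with a log2 fold change of -1.45 ± 0.14 (adjusted p = 1.03e-05, edgeR), and no exon overlap with another gene was found.

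Idua and Sgsh, which act in turn with Ids, Naglu and Gusb on heparan sulfate, fell too, while Gusb rose and Naglu was not called, at 0.04 on the log2 scale. Idua, the iduronidase, had 85.5, 49.8 and 69.9 CPM in cultured libraries and 141, 150.4, 145 and 149 CPM in resident libraries, a change of -1.06 ± 0.17 (adjusted p = 3.07e-04, edgeR). Sgsh, the sulfamidase, had 26.4, 35.7 and 24.6 CPM in cultured libraries and 50.9, 45.4, 50.5 and 50.5 CPM in resident libraries, a change of -0.73 ± 0.14 (adjusted p = 0.00131, edgeR). Neither gene's groups overlapped. Sgsh shares 21.6% of its exon bases with Card14 on the opposite strand. Smaller overlaps on the opposite strand, up to 18.8% for Arsa, were found for Arsa, Hexa, Lamp1, Npc1, Idua, Ppt1 and Grn. Glb1 shares 5.5% of its exon bases with Tmppe on the same strand. Ids, an iduronate sulfatase, was at -0.60 ± 0.20 (adjusted p = 0.0196, edgeR), and Ppt1, which removes palmitate from proteins, at -0.41 ± 0.14 (adjusted p = 0.026, edgeR). Ids lost its call in 2 and Ppt1 in 1 of 7 fits that left out a library. With the length trend removed, Sgsh and Ids were not called.

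The 6 hydrolases that were not called, Hexa, Gaa, Naglu, Man2b1, Arsa and Asah1, lay between -0.18 and 0.44. They include the acid alpha-glucosidase Gaa, which degrades glycogen, the glucosaminidase Naglu, the sulfatide-cleaving Arsa and the acid ceramidase Asah1. Cultured replicate 2 was the lowest of its group in 25 of the 35 members, and without it 23 members were higher and 9 lower. The shares of all genes without that library are not given here.

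The soluble cofactors and carriers all rose on counts. Psap, the precursor of the saposins that present lipids to hydrolases, had 5093, 3947 and 4444 CPM in cultured libraries and 1289.9, 1193, 1231 and 1327 CPM in resident libraries. Npc2, which carries cholesterol to Npc1, had 1533, 1737 and 1433 CPM in cultured libraries and 393, 419.9, 408 and 447 CPM in resident libraries. Both genes' groups were far apart, with changes of 1.87 ± 0.11 for Psap (adjusted p = 7.06e-07, edgeR) and 1.95 ± 0.11 for Npc2 (adjusted p = 4.22e-07, edgeR). Grn rose by 0.86 ± 0.09 on the log2 scale of counts (adjusted p = 2.39e-05, edgeR), but on TPM it was called lower, at -0.25.

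The transcription factors were among the members with low levels per length. Tfeb had 17.2, 32.9 and 17.5 CPM in cultured libraries and 24.9, 22, 25.2 and 22.3 CPM in resident libraries. Cultured replicate 2 lay above every resident library and the other cultured libraries below them, and Tfeb was not called, at -0.03 ± 0.23. Mitf had 37.8, 48.7 and 35.3 CPM in cultured libraries and 31, 30, 25.7 and 29.7 CPM in resident libraries. Its groups did not overlap, and it rose by 0.52 ± 0.14 on counts (adjusted p = 0.00736, edgeR), while on TPM it was called lower, at -0.54.

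Of the 6 pump genes, 5 rose on counts. Atp6v0d2, the d isoform best known from osteoclasts, had 239, 163 and 236 CPM in cultured libraries and 0, 0.14, 0.0475 and 0.0457 CPM in resident libraries. The resident values stand for 5 counts over 4 libraries, and the cultured ones for 3373 to 5002 counts in each. The fitted change was 11.74 ± 0.34 (adjusted p = 1.04e-08, edgeR). Its paralogue Atp6v0d1, the d isoform that most cells use, had 249.9, 326 and 275 CPM in cultured libraries and 106, 101, 104 and 113 CPM in resident libraries, without overlap. Atp6v0d1 rose by 1.46 ± 0.12 (adjusted p = 3.52e-06, edgeR); per length the isoforms stood in cultured cells at 94.97 ± 22.8 TPM for Atp6v0d2 and 200.3 ± 20.8 TPM for Atp6v0d1 (SD, n = 3 each).

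Both members of the pump's cytosolic sector rose too. Atp6v1a, the subunit that splits ATP, had 433, 347 and 369.7 CPM in cultured libraries and 88.6, 89.0, 74.8 and 83.7 CPM in resident libraries. Atp6v1b2, its partner in the catalytic ring, had 646, 438 and 601 CPM in cultured libraries and 159, 141, 151 and 163 CPM in resident libraries. Neither gene's groups came near each other, with changes of 2.23 ± 0.12 for Atp6v1a (adjusted p = 2.97e-07, edgeR) and 1.91 ± 0.15 for Atp6v1b2 (adjusted p = 2.73e-06, edgeR). Atp6v0a1 rose by 0.78 ± 0.10 on counts (adjusted p = 9.51e-05, edgeR) but was called lower on TPM, at -0.32. Atp6ap1, an accessory protein of the pump, was not called, at 0.02 ± 0.15.

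**Figure D5:**
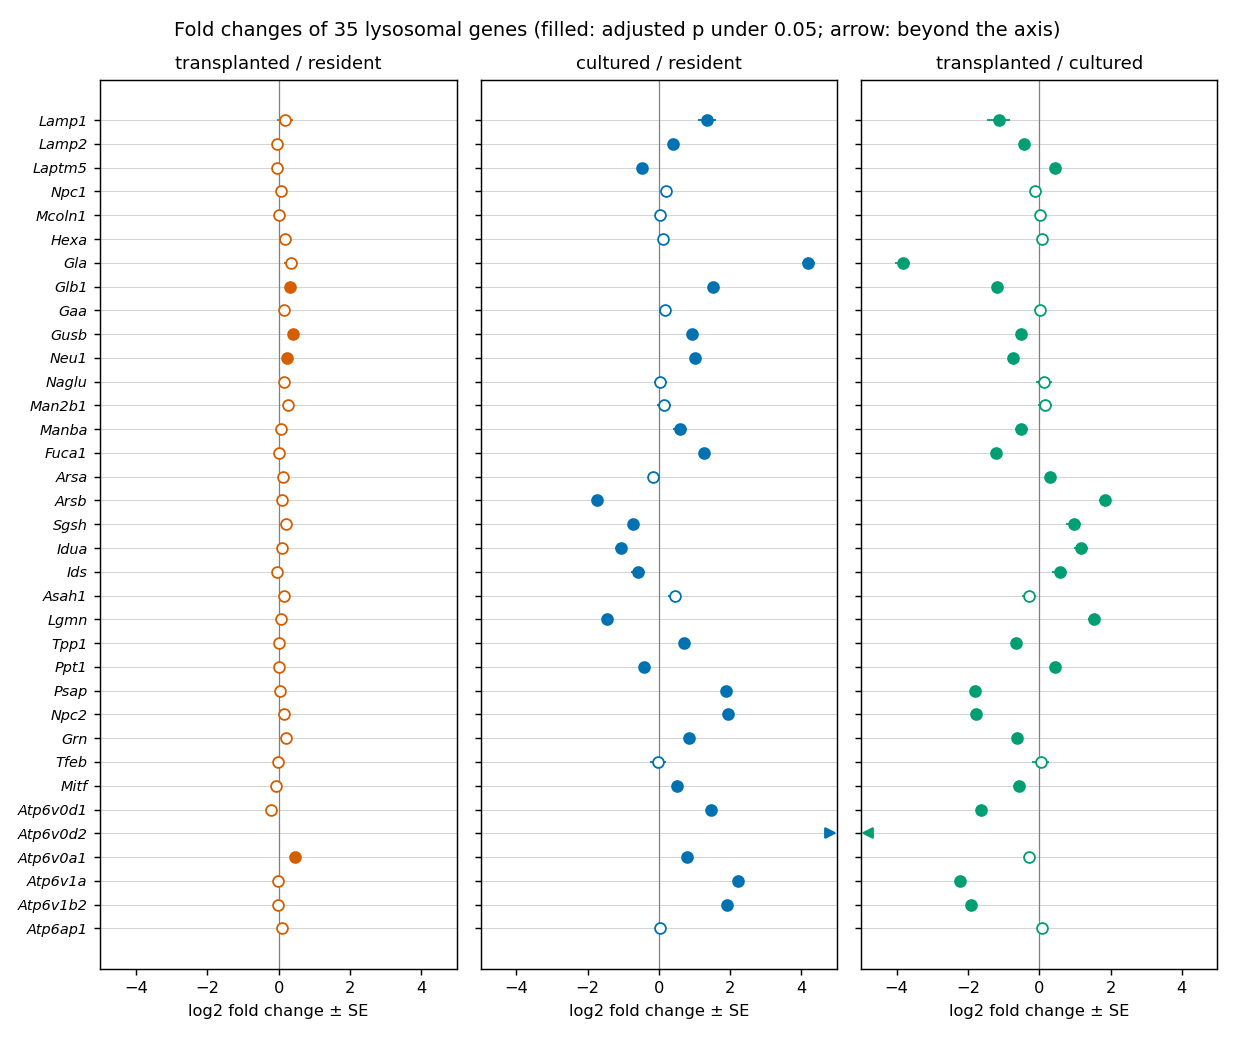
Log2 fold change of each member from edgeR on TMM-scaled counts, with its standard error, in the 3 comparisons, ordered by role; filled points are called at an adjusted p under 0.05 over all genes. Transplanted minus resident values stay between -0.20 and 0.47, while in the comparisons with cultured cells Atp6v1a, Atp6v1b2 and Atp6v0d1 lie far from 0; arrows mark Atp6v0d2, which lies beyond the axis and was not tested between transplanted and resident cells.

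The comparison of transplanted with cultured cells shares its cultured libraries with the one above. Transplanted cells had 8 of the 35 members higher and 17 lower, 71.4% in all, against 72.4% of the 12284 genes tested, 36.9% higher and 35.5% lower. Libraries did not overlap for 23 members, against 73.3% of all genes. The median was -0.29 over the members, also with Atp6v0d2 at the bound given below, and 0.05 over all genes on counts, and 0.79 and 1.05 on TPM, where 25 members were higher and 7 lower against 68% and 16.1% of all genes. Relative to all genes the members' median lay 0.34 lower on counts, and on TPM the difference was -0.26. With library totals 16 were higher and 9 lower (52.7% and 23.7% of all genes), with TMM-scaled TPM 8 and 16 (39.8% and 34.6%), and with the length trend removed 5 and 20 (34.2% and 37.3%).

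Higher in transplanted cells were Arsb, with 506, 451, 369.6 and 530.0 CPM there against 141, 107 and 134 CPM in cultured libraries, and Lgmn, with 7962, 8340.2, 7257 and 7988 CPM against 2937, 2195 and 2999.9 CPM. Idua had 147, 149.6, 133 and 190.4 CPM in transplanted libraries and 85.5, 49.8 and 69.9 CPM in cultured libraries, and Sgsh had 57.6, 65.4, 38.8 and 65.8 CPM in transplanted libraries and 26.4, 35.7 and 24.6 CPM in cultured libraries. None of the 4 genes overlapped, although for Sgsh transplanted replicate 3 came close to cultured replicate 2. Their log2 fold changes were 1.85 ± 0.17 for Arsb, 1.53 ± 0.15 for Lgmn, 1.17 ± 0.20 for Idua and 0.96 ± 0.21 for Sgsh, with adjusted p from 5.36e-06 to 0.00248 (edgeR). Ids at 0.57 ± 0.20, Laptm5 at 0.46 ± 0.13, Ppt1 at 0.44 ± 0.14 and Arsa at 0.31 ± 0.12 completed the 8; Arsa was called in 3 and Ids in 3 of 7 fits that left out a library. With the length trend removed, Sgsh, Ids and Arsa were not called, at 0.47, 0.074 and -0.081.

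Atp6v0d2 had 0 counts in all 4 transplanted libraries, against 239, 163 and 236 CPM in cultured libraries. Set against 3 counts over the transplanted group, the bound used here for a count of 0, it was about 6023-fold lower in transplanted cells. The lower 95% limit of the fold was 4898, and both values cover counting error only. With resident cells no fold is given, since both groups were near that bound of 3 counts and the gene did not pass the expression filter there.

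Gla had 6.1, 6.39, 7.92 and 10.5 CPM in transplanted libraries and 119, 86.9 and 121 CPM in cultured libraries, a change of -3.83 ± 0.21 (adjusted p = 2.41e-07, edgeR). Atp6v1a had 82.4, 81.0, 76.5 and 92.3 CPM in transplanted libraries and 433, 347 and 369.7 CPM in cultured libraries, and Atp6v1b2 had 151, 164, 144 and 141 CPM in transplanted libraries and 646, 438 and 601 CPM in cultured libraries. All 3 genes were far apart between the groups, and Atp6v1a and Atp6v1b2 fell by 2.22 ± 0.12 and 1.92 ± 0.15 on the log2 scale (adjusted p = 2.45e-07 and 1.79e-06, edgeR). Psap was at -1.80 ± 0.13, Npc2 at -1.77 ± 0.12, Atp6v0d1 at -1.64 ± 0.13, Fuca1 at -1.22 ± 0.13 and Glb1 at -1.19 ± 0.12. On TPM neither Fuca1, at -0.12, nor Glb1, at -0.086, was called. Transplanted libraries of Atp6v0d1 had 95.8, 95.5, 83.4 and 91.7 CPM, below each of its cultured libraries.

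The paralogue pairs Lamp1 and Lamp2, and Tfeb and Mitf, gave smaller or less even differences. Lamp1 had 778, 630.3, 1185 and 1419 CPM in transplanted libraries and 1364, 1962 and 3219 CPM in cultured libraries, so that transplanted replicate 4 lay above cultured replicate 1. Its change of -1.14 ± 0.33 (adjusted p = 0.0105, edgeR) was lost without cultured replicate 3, with adjusted p = 0.0578; it was not called on TPM, at -0.011, or with library totals, at -0.57. Lamp2 had 635, 674, 626 and 693 CPM in transplanted libraries and 940.0, 789.6 and 916 CPM in cultured libraries, at -0.44 ± 0.11 (adjusted p = 0.00584, edgeR) on counts and called higher, at 0.40, on TPM. Tfeb had 23.5, 25.1, 21.5 and 23.4 CPM in transplanted libraries, within its cultured range, and was not called, at 0.04 ± 0.23. Mitf had 27.1, 31.9, 24.3 and 26.7 CPM in transplanted libraries, below its cultured libraries, at -0.58 ± 0.16 (adjusted p = 0.0082, edgeR) on counts but higher on TPM, at 0.48. The remaining calls on counts, Neu1 at -0.75, Tpp1 at -0.66, Grn at -0.62, Gusb at -0.50 and Manba at -0.50, were called higher on TPM, and Manba was called lower on counts in 2 of 7 fits that left out a library.

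The 3 comparisons share libraries, so their calls are set side by side as a description. On counts, 13 members were higher in cultured cells than in both sorted groups with no call between the sorted groups, and 7 were lower than in both in the same way: Laptm5, Arsb, Sgsh, Idua, Ids, Lgmn and Ppt1. Of the 13, on TPM 6 were called higher in cultured cells than in both, namely Gla, Psap, Npc2, Atp6v0d1, Atp6v1a and Atp6v1b2, 5 were called lower than in both, namely Lamp2, Manba, Tpp1, Grn and Mitf, and Lamp1 and Fuca1 were not called. The 7 were called lower than in both on TPM too. Gusb, Glb1 and Neu1 had their highest level in cultured cells, an intermediate level in transplanted cells and the lowest in resident cells, each step called on counts. Of these, on TPM Glb1 was not called between transplanted and cultured cells, and Gusb and Neu1 were called higher in transplanted cells. On counts Atp6v0a1 was called above resident cells in both other groups and was not called between them; on TPM it was called lower in cultured than in resident cells and higher in transplanted than in cultured cells, at 0.79. No comparison on counts called Npc1, Mcoln1, Hexa, Gaa, Naglu, Man2b1, Asah1, Tfeb or Atp6ap1, 9 members in all; on TPM all 9 were called lower in cultured than in resident cells and higher in transplanted than in cultured cells, and Hexa and Man2b1 were called higher in transplanted than in resident cells. Coefficients of variation, over members above 1 CPM, had a median of 7.57% in transplanted, 16.6% in cultured and 5.66% in resident libraries.

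Most other pump subunits were also higher in cultured than in resident cells on counts, with 9 higher and 3 lower of 14. For this and the lists below, the shares of all genes there were 37.9% higher and 37.2% lower, and 17.4% and 68.4% on TPM. In transplanted against resident cells they were 7.17% and 5.86% on counts. In transplanted against cultured cells they were 36.9% and 35.5% on counts, and 68% and 16.1% on TPM. With the members, 20 pump genes were tested between cultured and resident cells, of which 14 rose and 3 fell on counts, with a median of 1.09. On TPM 8 were higher and 8 lower of 19 tested. With the length trend removed 12 were higher and 4 lower of 20, with a median of 0.47. For the 14 other subunits alone the median was 0.92 on counts. With the length trend removed it was 0.20, with 7 higher and 4 lower. On TPM it was -0.24, with 4 higher and 6 lower of 13. Atp6v1e1, a stalk subunit, rose by 2.08 ± 0.10 and Atp6v0e, a small membrane subunit, by 1.93 ± 0.10, on TPM too. Those that fell were Atp6v0a2, an a subunit isoform, at -2.97 ± 0.14, Atp6v1g2 at -1.24 ± 0.49 and Tcirg1, a further a subunit isoform, at -0.95 ± 0.13; Tcirg1 is named after its value was seen. In mean level, Atp6v0a2 had 41.9 CPM in cultured cells and 337 CPM in resident cells, and Tcirg1 had 289 CPM in cultured cells and 573 CPM in resident cells, while the member isoform Atp6v0a1 had 405 CPM in cultured cells and 242 CPM in resident cells. Between transplanted and cultured cells 3 of the 20 were higher and 13 lower on counts, with 8 and 8 of 19 on TPM. With the length trend removed 4 were higher and 12 lower there. Between transplanted and resident cells 1 was lower beside the rise of Atp6v0a1: Atp6v1f, at -0.35 ± 0.09 (adjusted p = 0.0322, edgeR).

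Of 26 other hydrolases and activators, 15 rose and 10 fell in cultured against resident cells on counts, and 9 and 15 on TPM. Acp5, a tartrate-resistant phosphatase, rose by 8.20 ± 0.53 and Hpse, a heparanase, by 7.09 ± 0.51. Pla2g15, a lysosomal phospholipase, fell by 1.75 on the log2 scale (SE 0.11). These 3 genes kept their call on TPM. Between transplanted and resident cells 5 of 24 tested were higher and 1 lower. Galns at 0.48 ± 0.08 and Galc, the galactosylceramidase of myelin lipid breakdown, at 0.43 ± 0.08 were the highest, Dpp7, Acp2 and Lipa, named after their values were seen, lay between 0.28 and 0.35, and Arsg was lower at -0.62 ± 0.13. Transplanted against cultured cells gave 10 higher and 13 lower on counts, and 15 and 7 on TPM.

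Of 28 other lysosomal membrane and transport genes, 10 of 25 tested rose and 8 fell in cultured against resident cells, and 5 and 18 on TPM. Both were near the shares of all genes, 37.9% and 37.2% on counts and 17.4% and 68.4% on TPM. The channel Mcoln2 rose by 7.85 ± 0.70 and the tetraspanin Cd63 by 3.08 ± 0.17, while the nucleoside transporter Slc29a3 fell by 2.84 (SE 0.11). Between transplanted and resident cells 5 of 24 were higher, led by the metal transporter Slc11a1 at 0.55 ± 0.07 (adjusted p = 5.88e-04, edgeR) and Mfsd12 at 0.49 ± 0.10, and 2 lower, Cd164 at -0.32 ± 0.08 and Tpcn1 at -0.28 ± 0.08. Slc29a3, Cd63 and Slc38a9, named after their values were seen, were the other 3, between 0.28 and 0.33. Against cultured cells, 9 of 25 were higher and 9 lower in transplanted cells, and 19 and 3 on TPM.

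Receptors and enzymes that sort hydrolases to the lysosome gave 8 of 13 higher and 4 lower in cultured against resident cells, and 4 and 9 on TPM. Igf2r, the large mannose 6-phosphate receptor, had 32.3 ± 3.57 CPM in cultured cells (SD, n = 3) and 0.336 ± 0.182 CPM in resident cells (SD, n = 4), a change of 6.60 ± 0.32. Between transplanted and resident cells 2 of 12 were higher: Sorl1, a sorting receptor, with 81.3 ± 8.81 CPM in transplanted cells and 32.7 ± 6.15 CPM in resident cells (SD, n = 4 each), at 1.32 ± 0.13 (adjusted p = 1.48e-04, edgeR), and Gnptab, which makes the mannose 6-phosphate tag, at 0.70 ± 0.13 (adjusted p = 0.00511, edgeR). Against cultured cells, 3 of 13 were higher and 6 lower in transplanted cells, and 8 and 2 on TPM.

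Among 16 relatives and regulators of Tfeb and Mitf in the table, 8 were higher and 4 lower in cultured against resident cells, and 3 and 7 of 15 on TPM. Tfec, a relative of Tfeb found mainly in macrophages, had 150 ± 1.24 CPM in cultured cells (SD, n = 3) and 0.255 ± 0.146 CPM in resident cells (SD, n = 4), a change of 9.20 ± 0.23 (adjusted p = 6.36e-09, edgeR). Rptor, a subunit of the kinase complex that restrains Tfeb, had 19.1 CPM in cultured cells and 266 CPM in resident cells on average, a change of -3.76 ± 0.11. Between transplanted and resident cells Tfec alone was called, with 0.821 ± 0.358 CPM in transplanted cells and 0.255 ± 0.146 CPM in resident cells (SD, n = 4 each), at 1.67 ± 0.47 (adjusted p = 0.0411, edgeR), and its libraries overlapped. Against cultured cells, 5 of 16 were higher and 9 lower in transplanted cells, and 7 and 4 of 15 on TPM.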

How the data were processed

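RNA was sequenced in 11 libraries grouped by their titles. Per the file headers, the authors deposited for each gene, by Entrez identifier, expected counts, TPM and FPKM values, which the authors scaled for length and library, except the expected counts; the 11 FPKM columns were not used. The submitters' processing notes name Bowtie2, HISAT and build GRCm38.p6; the read counter, its strand setting and filters were not given in the sources used here. Symbols came from a RefSeq table of that build, which matched 16845 of 16894 identifiers (99.7%); 49 stayed in the tests unnamed.

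Expected counts were rounded and each pair of groups fitted alone in R 4.3.3 with edgeR 4.0.16 (TMM, expression filter, quasi-likelihood test, Benjamini-Hochberg over all genes tested, call under 0.05). The script recovered known changes in simulated data in which few genes changed, evenly up and down. Those data held no shift like that between cultured and sorted cells, so they do not test the choice of scale. The deposited log2(TPM + 0.5) values were tested with limma 3.58.1, with genes of at least 1 TPM in 3 libraries; DESeq2 1.42.0, other scalings, no filter, a removed length trend and leaving out each library were alternatives. At these depths 3 counts are 0.106 to 0.16 CPM; floors cover counting error only, since no molecular identifiers are described. Replicate numbers did not pair libraries: correlations of same-numbered deviations ran from -0.053 to 0.059.

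Members and gene lists were chosen with earlier results of these data known. All members are named. Values of all libraries are given for the 4 highest and 4 lowest called members of each comparison, for the pairs Atp6v0d1 and Atp6v0d2, Lamp1 and Lamp2, and Tfeb and Mitf, and for members not tested, and up to 2 called genes in each direction are named from each further list. Identity between proteins was not computed. Atp6v1b1, Rragb and Retnlg were not analysed here.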

Additional observations from a re-analysis of the deposited data

Results flagged for a closer look

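In the 69 groups of 4 libraries that were looked at, 2 held a library whose gap to the nearest other was large against the range of its group (past Dixon's 95% critical value for 4 values); chance gives this in about 1 in 20 groups. Npc1 had 242 CPM in resident replicate 4, while the other resident libraries lay between 237.6 and 237.9 CPM. Sgsh had 45.4 CPM in resident replicate 2, while the others lay between 50.5 and 50.9 CPM.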

How the results depend on the processing

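Between transplanted and resident cells the members' median kept its sign under all alternatives. The main count of 4 higher and 0 lower became 7 and 1 with DESeq2, 5 and 1 with library totals, 7 and 0 on TPM with either pseudocount (0.5 or 0.1), and 2 and 0 with all libraries in 1 fit. Of all genes, 6.92% were higher and 6.3% lower with library totals, and 6.95% and 5.56% on TPM with a pseudocount of 0.5. Shares of all genes with DESeq2, the single fit, the replicate block, unfiltered TPM and fits leaving out a library are not given here. Leaving out each library gave 1 to 7 higher and 0 lower, with medians of 0.05 to 0.11.

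Between cultured and resident cells library totals gave 13 higher, 16 lower and a median of -0.15, and TPM gave 8 and 24 with a median of -0.55 (-0.56 with a pseudocount of 0.1; 8 and 22 without the filter). The median was 0.39 without the expression filter and 0.65 with the length trend removed. Leaving out each library gave 16 to 23 higher, 5 to 9 lower and medians of 0.33 to 0.46. Between transplanted and cultured cells library totals gave 16 higher, 9 lower and a median of 0.27, and TPM gave 25 and 7 with a median of 0.79. With the length trend removed 5 were higher and the median was -0.60. Leaving out each library gave 6 to 9 higher, 15 to 18 lower and medians of -0.42 to -0.27. Relative to the median of all genes the members' median kept its sign on each scale, except on unfiltered TPM, where it was -0.06 for cultured against resident and 0.27 for transplanted against cultured cells. The cause was not tested.

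The sign changes given here are of members called in the main test or under the alternative; members called in neither, such as Asah1 with library totals, are not listed. Log2 fold changes of cultured against resident cells that turned sign with library totals were Lamp2 -0.18, Npc1 -0.39, Mcoln1 -0.56, Hexa -0.47, Gaa -0.43, Naglu -0.55, Man2b1 -0.45, Manba -0.0018, Mitf -0.064 and Atp6ap1 -0.56. On TPM those that turned sign were Lamp2 -0.43, Npc1 -0.91, Mcoln1 -1.08, Hexa -1.001, Gaa -0.96 or -0.97, Gusb -0.33, Neu1 -0.10, Naglu -1.10, Man2b1 -0.98, Manba -0.55 or -0.56, Asah1 -0.70, Tpp1 -0.55, Grn -0.25, Mitf -0.54 or -0.56, Atp6v0a1 -0.32 and Atp6ap1 -1.10, where a second value belongs to the pseudocount of 0.1. For transplanted against cultured cells, those that turned with library totals were Lamp2 0.12, Npc1 0.45, Gusb 0.062 and Manba 0.064, on TPM Lamp2 0.40, Npc1 0.998 or 1.003, Gusb 0.71, Neu1 0.36, Manba 0.64 or 0.65, Asah1 0.86, Tpp1 0.58, Grn 0.48, Mitf 0.48 or 0.50 and Atp6v0a1 0.79, and with the length trend removed Gaa -0.36 and Arsa -0.081.

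Replicate numbers were shared between groups but did not pair libraries. With the replicate block 3 members were higher and 0 lower in transplanted against resident cells (median 0.07), 18 and 5 in cultured against resident cells (0.45), and 6 and 16 in transplanted against cultured cells (-0.34). Members at a few counts, such as Atp6v0d2 in resident cells, are limited by depth.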
